A study of Homo sapiens with 6 samples.

Results

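Cell junctions, keratin filaments and the epithelial-mesenchymal transition (EMT) were followed through 49 given genes in OVCAR8 RNA-Seq data. The list holds 38 epithelial genes, 8 mesenchymal genes and 3 catenins, which serve both cell states. Of the 49, 44 were found in the deposited matrix of 14930 genes, and 27 met a limit of 10 or more in at least 2 of the 6 samples, as did 9671 genes of the whole matrix. These 27 were 19 epithelial genes, 5 mesenchymal genes and the 3 catenins. A further 17 genes lay under the limit and are described by their values. CRB3, RAB25, KRT19, GRHL2 and OVOL1 were not in the matrix under these symbols and were not analysed here.

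OVCAR8 is an established cell line from high grade serous ovarian cancer. The study asked what becomes of the transcriptome when EZH2, the histone H3K27 methyltransferase of the Polycomb repressive complex PRC2, is lost by a drug or by a hairpin. The 3 groups had 2 samples each, all taken at 72 hours. Ctrl cells were OVCAR8 cells, which per the study's methods received the solvent DMSO. DZNep cells were OVCAR8 cells given DZNep at 5 μM per the methods (the labels print mM), a drug that blocks S-adenosylhomocysteine hydrolase and lowers EZH2 protein. The shEZH2 cells were a line that carries a doxycycline-inducible hairpin against EZH2, given doxycycline at 1 μg/mL per the methods (the labels print mg/mL). No sample of that line without doxycycline was analysed here, so the hairpin, the doxycycline and the line itself cannot be told apart from the loss of EZH2. Nothing in the labels says that the samples of a group were separate cultures, so p-values measure the spread between these samples, which may be technical.

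Epithelial cells are joined by tight junctions, which seal the space between them, by adherens junctions, in which cadherins bind catenins and through them actin, and by desmosomes, which anchor keratin filaments. In EMT, transcription factors of the SNAI, ZEB and TWIST families bind E-box motifs and repress epithelial genes such as CDH1 (E-cadherin), while vimentin and N-cadherin rise. Ovarian cancers often keep both programmes side by side.

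Each sample held 1 whole number per gene, and these added up to between 999956 and 1000068. They are therefore scaled and rounded values rather than read counts, and the number of reads behind them is unknown. Fold changes are log2 differences of the rescaled value plus 1, which understate the change of low genes, and come with a standard error (SE) and a p-value of limma adjusted by Benjamini-Hochberg over the 9671 genes. A gene is said to have risen or fallen at an adjusted p under 0.05. Overlap between groups refers to the values as listed, unless rescaling is named. EZH2 itself, at chr7:148807257-148884321 of GRCh38, was listed at 36 and 42 in Ctrl, 26 and 26 in DZNep, and 18 and 18 in shEZH2. It fell by 0.63 with DZNep (SE 0.18, limma adjusted p = 0.026) and by 1.12 with the hairpin (SE 0.18, limma adjusted p = 0.016). The 2 shEZH2 samples lay closer to each other than the samples of other groups, with an SD of their log2 difference over genes of 0.14, against 0.43 in Ctrl and 0.45 in DZNep. The keratins KRT7, KRT8 and KRT18 were high in all samples, whereas EPCAM lay between 5 and 12 and WT1, a marker of serous ovarian cancer, between 1 and 2. PAX8, the Müllerian lineage factor, lay between 10 and 19. Of 4 leukocyte, 3 endothelial and 5 fibroblast markers, 2, 1 and 2 were found in the matrix, with sums per sample of 17 to 71, 0 to 2 and 11 to 17. VWF (endothelium) and LUM (fibroblasts) reached at most 2. CD68, which tissue macrophages share with many other cells, was listed at 70 and 65, 18 and 15, and 32 and 28 in Ctrl, DZNep and shEZH2, and its part in any result was not tested.

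Promoter sequence was available from RefSeq (GRCh38) for 26 of the 49 genes, as 46 windows of 300 bases that span a transcription start. The E-box read by SNAI and ZEB factors, CACCTG or its reverse complement CAGGTG, was searched on both strands. It stood in 15 of the 46 windows (32.6%) and in 20.6% of all 35116 windows of that length. The 46 windows are not independent, since ZEB1 alone gave 7 and the 2 windows of OCLN overlap. These shares were neither matched for GC content nor tested. The windows of the gene that rose most and of the pair that fell most with DZNep, among those whose window lies at the start of the annotated gene, are printed in the direction of transcription, with the E-box letters in capitals. CLDN1 (chr3:190322397-190322696, minus strand) held no E-box, DSG2 (chr18:31497927-31498226, plus strand) held 2 and SPINT1 (chr15:40843798-40844097, plus strand) held none, whereas a second SPINT1 window, which lies past the annotated start of the gene, held 1.
CLDN1: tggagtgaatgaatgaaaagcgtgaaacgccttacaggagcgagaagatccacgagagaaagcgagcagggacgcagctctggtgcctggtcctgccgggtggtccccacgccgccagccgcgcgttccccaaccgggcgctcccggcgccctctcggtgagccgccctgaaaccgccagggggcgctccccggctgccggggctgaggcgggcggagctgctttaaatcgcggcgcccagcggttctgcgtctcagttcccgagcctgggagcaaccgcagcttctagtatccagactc
DSG2: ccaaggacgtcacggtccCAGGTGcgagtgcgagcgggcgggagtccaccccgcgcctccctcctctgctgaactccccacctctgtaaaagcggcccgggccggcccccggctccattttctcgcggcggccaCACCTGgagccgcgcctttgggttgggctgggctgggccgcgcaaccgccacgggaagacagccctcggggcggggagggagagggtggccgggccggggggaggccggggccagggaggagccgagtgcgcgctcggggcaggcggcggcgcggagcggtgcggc
SPINT1: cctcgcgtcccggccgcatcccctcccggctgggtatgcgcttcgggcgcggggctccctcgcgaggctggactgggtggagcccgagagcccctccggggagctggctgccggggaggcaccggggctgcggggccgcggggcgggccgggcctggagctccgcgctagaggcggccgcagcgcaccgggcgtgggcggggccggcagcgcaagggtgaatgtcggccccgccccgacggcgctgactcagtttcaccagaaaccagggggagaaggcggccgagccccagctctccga
All 3 windows were rich in CpG, with 31, 36 and 38 CpG pairs against a median of 14 over all windows. A match to these letters is a description of the window and says nothing about whether a factor was bound there.

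With DZNep, keratins 8 and 18, P-cadherin and claudin-1 rose, whereas the protease inhibitors SPINT1 and SPINT2 and the desmosomal cadherin DSG2 fell. Of the 19 epithelial genes that met the limit, 6 rose (CDH3, CLDN1, F11R, KRT8, KRT18 and PKP3) and 5 fell (DSG2, PKP4, PERP, SPINT1 and SPINT2). Among all genes tested, 22.4% rose and 20.4% fell, or 25.7% and 15.6% on the values as deposited. The epithelial genes moved in both directions, although 7 rose and 2 fell on the values as deposited, and their median log2 fold change was 0.08 against 0.02 over all genes. At the cut-offs of the study's methods (log2 fold change beyond 1 in either direction and a raw P under 0.05), 4 epithelial genes were higher and 3 lower, where 10.5% and 11.8% of all genes were. CDH3 met the limit only through its DZNep values and SPINT1 only through its Ctrl values, so a difference was built into their selection. CLDN1, KRT8, KRT18 and SPINT2 passed the test under each alternative. CDH3 and SPINT1 dropped out where a mean of 10 or more over the samples was required. The other calls were lost under some: F11R, PKP3 and PKP4 when any of Ctrl replicate 2, DZNep replicate 1 or either shEZH2 sample was left out, with adjusted p up to 0.16, 0.12 and 0.15, PERP without Ctrl replicate 2 (0.054) or DZNep replicate 1 (0.053), and DSG2 without DZNep replicate 1 (0.054). DSG2, PERP and PKP4 also missed it on the values as deposited (0.066, 0.063 and 0.1), and F11R and PKP4 in a fit of the DZNep and Ctrl samples only (0.067 and 0.11).

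**Figure D1:**
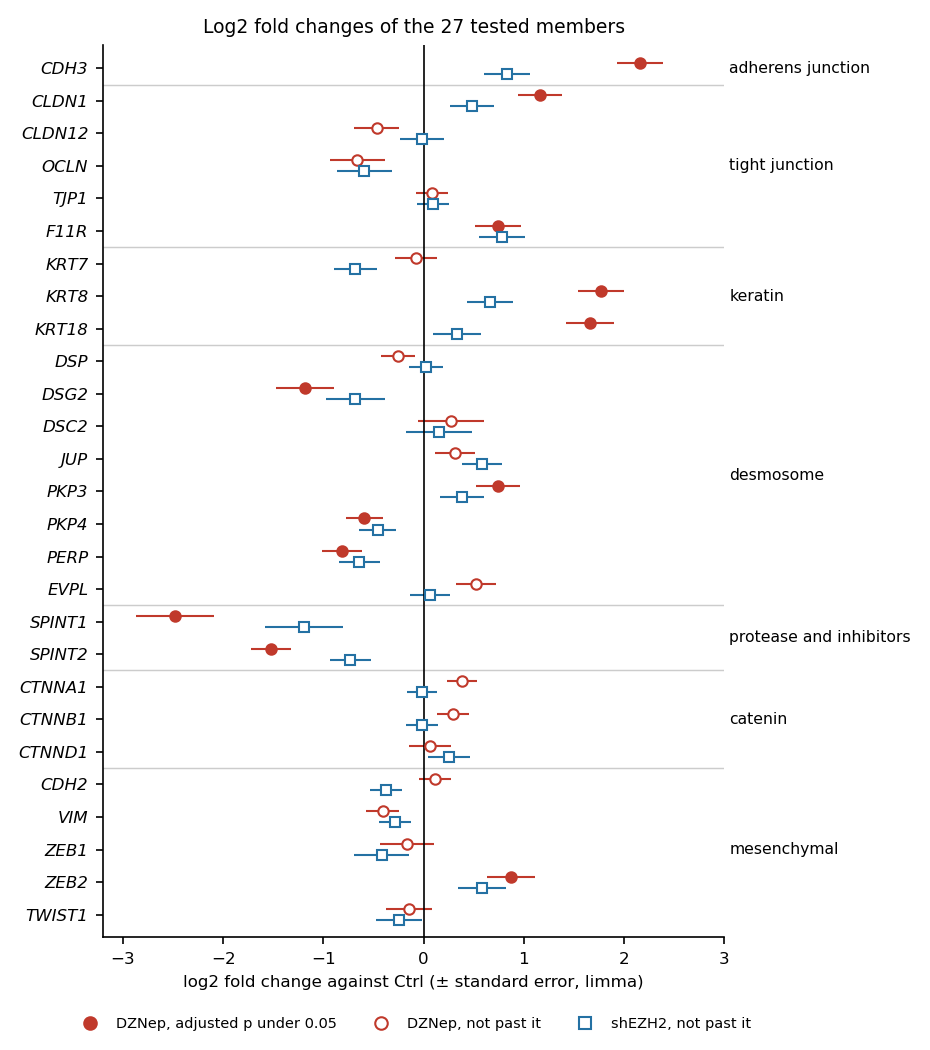
Log2 fold changes of the 27 genes that met the limit, ordered by role, for DZNep against Ctrl (circles) and shEZH2 against Ctrl (squares), with bars of 1 standard error from limma. Filled marks passed an adjusted p of 0.05. CDH3 lies farthest to the right at 2.16 and SPINT1 farthest to the left at -2.48, and no square is filled.

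Keratins 8 and 18 pair to form the filaments of simple epithelium. KRT8 (chr12:52897187-52949954) was listed at 1021 and 816 in Ctrl, 3540 and 3046 in DZNep, and 1484 and 1494 in shEZH2. The DZNep samples lay far above the others, and the shEZH2 samples lay between them and Ctrl without overlap. KRT8 was 3.42-fold higher with DZNep (log2 1.77, SE 0.23, limma adjusted p = 0.00085), and its difference in shEZH2 was 0.66 on the log2 scale (limma adjusted p = 0.11). Its partner KRT18 (chr12:52948871-52952906) was listed at 1392 and 1080, 4398 and 3793, and 1591 and 1592 in the same order. KRT18 was 3.17-fold higher with DZNep (log2 1.66, SE 0.24, limma adjusted p = 0.0013), with a log2 difference of 0.33 in shEZH2 (limma adjusted p = 0.40). Both genes were highest in DZNep. The log2 ratio of KRT8 to KRT18 was -0.45 and -0.40 in Ctrl, -0.31 and -0.32 in DZNep, and -0.10 and -0.09 in shEZH2, without a test. In GENCODE v44 the pair lies side by side on opposite strands and overlaps by 1084 bases, and both genes have many processed pseudogenes, so shared reads could be split between loci. KRT7 (chr12:52232520-52252186), a keratin of glandular and Müllerian epithelium, did not follow them. It was listed at 597 and 499 in Ctrl, 585 and 503 in DZNep, and 355 and 350 in shEZH2. Its DZNep and Ctrl values overlapped (log2 -0.08, SE 0.21, limma adjusted p = 0.78), and both shEZH2 values lay under all others (log2 -0.68, SE 0.21, limma adjusted p = 0.087). The log2 ratio of KRT7 to KRT8 was -0.77 and -0.71 in Ctrl, -2.60 in both DZNep samples, and -2.06 and -2.09 in shEZH2, without a test.

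**Figure D2:**
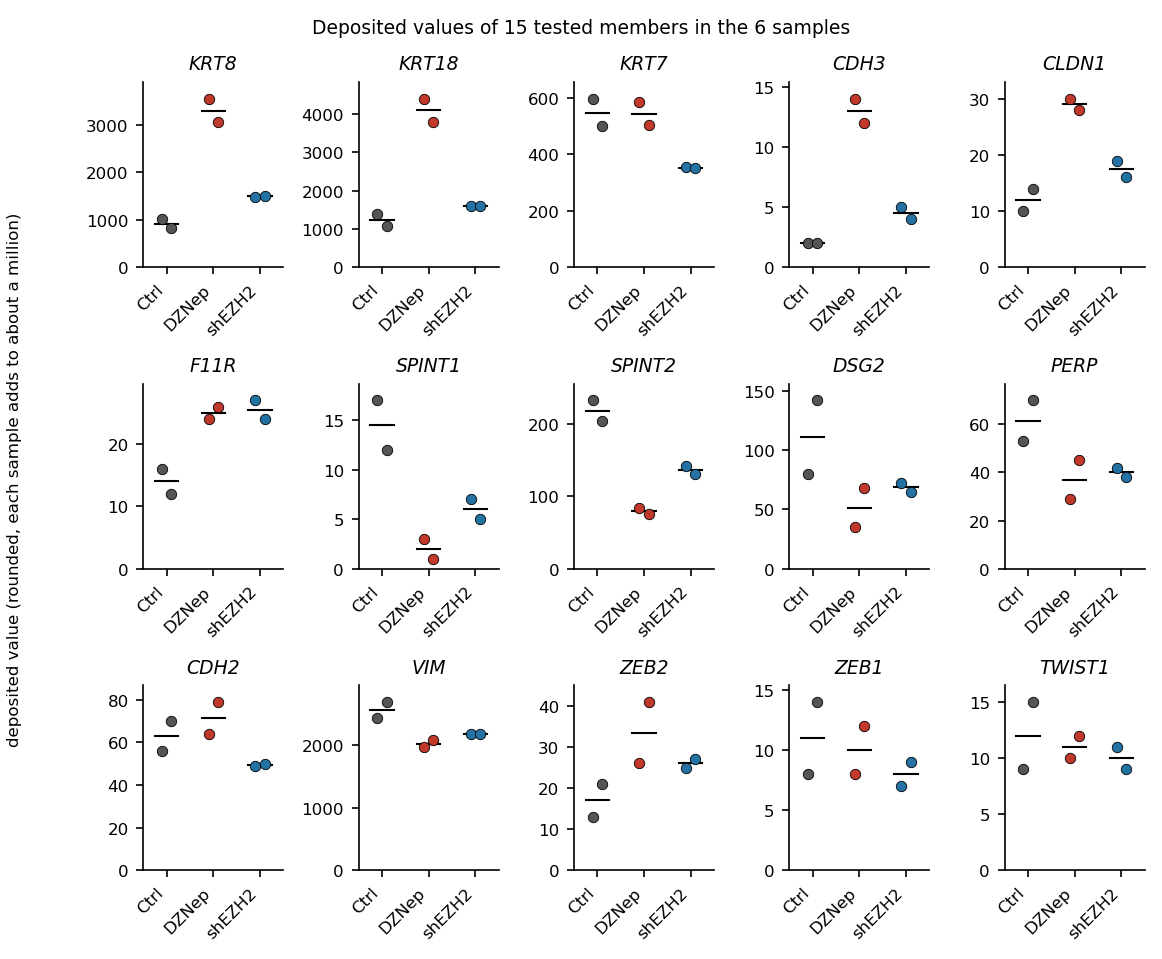
Deposited values (rounded, each sample adding to about the same total) of 15 genes in the 6 samples, 1 panel per gene with its own axis from 0, where points are samples and lines are means of 2. KRT8 and KRT18 are highest in DZNep, KRT7 is lowest in shEZH2, and ZEB1 and TWIST1 overlap between Ctrl and DZNep.

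Among the classical cadherins, CDH3 (P-cadherin, chr16:68636189-68727468) was listed at 2 and 2 in Ctrl, 14 and 12 in DZNep, and 5 and 4 in shEZH2. The 3 groups did not overlap, although a Ctrl value of 2 carries a large rounding error. The limit was met only through the DZNep values, so a difference was built into the selection of CDH3. CDH3 rose 4.48-fold with DZNep (log2 2.16, SE 0.23, limma adjusted p = 0.00038) and differed by 0.83 in shEZH2 (SE 0.23, limma adjusted p = 0.059). CDH1, its neighbour 9823 bases away at chr16:68737292-68835537, encodes E-cadherin, the defining adherens junction protein of epithelium, and stayed under the limit. It was listed at 1 and 0 in Ctrl, 7 and 8 in DZNep, and 1 and 2 in shEZH2. Rounding alone allows a ratio of the mean DZNep value of CDH1 to its mean Ctrl value from 7 to 32, so no fold change is given. EPCAM, an adhesion molecule of carcinomas, was listed at 7 and 12, 5 and 7, and 8 and 7 in the 3 groups. DZNep cells thus had higher values of both neighbouring cadherin genes, at low levels, and not of EPCAM.

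Catenins link cadherins to actin, and CTNNB1 also carries Wnt signals. CTNNA1 (chr5:138610967-138935034) was listed at 545 and 558 in Ctrl, 698 and 817 in DZNep, and 557 and 569 in shEZH2. Both DZNep values lay above all others, but the log2 difference of 0.38 (SE 0.15) did not pass (limma adjusted p = 0.075). CTNNB1 (chr3:41194741-41260096) was listed at 424 and 506, 494 and 716, and 473 and 475. Ctrl and DZNep overlapped as listed, but both DZNep values lay above Ctrl after rescaling (log2 0.29, SE 0.16, limma adjusted p = 0.19). CTNND1 (p120, chr11:57753243-57819546), which holds cadherins at the membrane, was listed at 67 and 62, 77 and 65, and 84 and 75 (log2 0.06, SE 0.21, limma adjusted p = 0.83 with DZNep). In shEZH2 the log2 differences of CTNNA1, CTNNB1 and CTNND1 were -0.02, -0.02 and 0.25, with limma adjusted p of 0.48 or more. None of the 3 catenins passed in either comparison with limma, and at an unadjusted p under 0.05 the count was 1 with DZNep (CTNNA1) and 0 with the hairpin, against 51.1% and 28.2% of all genes.

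Of the tight junction genes, 5 met the limit, and with DZNep 2 of them rose and none fell, against 22.4% and 20.4% of all genes. CLDN1 (claudin-1, chr3:190305707-190322446), a strand-forming barrier protein, was listed at 10 and 14 in Ctrl, 30 and 28 in DZNep, and 19 and 16 in shEZH2. Its groups did not overlap, and it was 2.23-fold higher with DZNep (log2 1.16, SE 0.22, limma adjusted p = 0.0042). F11R (JAM-A), an adhesion molecule of the immunoglobulin family, was listed at 16 and 12, 24 and 26, and 27 and 24. Its DZNep and shEZH2 values overlapped each other and lay above Ctrl, at log2 differences of 0.74 (SE 0.23, limma adjusted p = 0.031) and 0.78 (SE 0.23, limma adjusted p = 0.067). OCLN (occludin) was listed at 23 and 31, 12 and 25, and 19 and 17, with differences of -0.66 and -0.59 that did not pass (limma adjusted p of 0.08 and 0.19). CLDN12, a claudin of wide expression, was listed at 25 and 42, 21 and 28, and 33 and 33, and its log2 difference with DZNep was -0.47 (SE 0.22, limma adjusted p = 0.13). TJP1 (ZO-1, chr15:29699367-29968915), the scaffold under the junction, was listed at 51 and 64, 56 and 72, and 65 and 61, and its groups overlapped. Its log2 difference with DZNep was 0.08, with a 95% interval from -0.30 to 0.46.

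Of the 8 desmosomal genes that met the limit, PKP3 rose with DZNep, and DSG2, PKP4 and PERP fell, against 22.4% and 20.4% of all genes. DSP, DSC2, JUP and EVPL did not pass. DSG2 (chr18:31498177-31549008), the desmosomal cadherin of simple epithelium, was listed at 80 and 142 in Ctrl, 35 and 68 in DZNep, and 72 and 65 in shEZH2. Both DZNep values lay under both Ctrl values, although the samples within Ctrl and within DZNep differed widely, and DSG2 was 2.27-fold lower (log2 -1.18, SE 0.29, limma adjusted p = 0.013). PERP, a membrane protein of desmosomes, was listed at 53 and 70, 29 and 45, and 42 and 38, and fell by 0.81 with DZNep (SE 0.20, limma adjusted p = 0.013). PKP4, a plakophilin relative found at adherens junctions and desmosomes, was listed at 55 and 75, 39 and 51, and 47 and 49, and fell by 0.59 (SE 0.18, limma adjusted p = 0.031). PKP3, a plakophilin that binds desmosomal cadherins, was listed at 43 and 41, 81 and 68, and 53 and 61. It rose by 0.74 with DZNep (SE 0.22, limma adjusted p = 0.028). DSP (desmoplakin, the link to keratin) was listed at 99 and 134, 93 and 110, and 130 and 113, and the groups overlapped as listed. After rescaling, both DZNep values of DSP lay under Ctrl (log2 -0.26, SE 0.17, limma adjusted p = 0.25). JUP (plakoglobin) was listed at 16 and 15, 21 and 20, and 25 and 24, in groups that did not overlap, with log2 differences of 0.31 and 0.58 for DZNep and shEZH2 (limma adjusted p of 0.24 and 0.11). EVPL (envoplakin) was listed at 20 and 18, 29 and 29, and 21 and 20 (log2 0.52 with DZNep, limma adjusted p = 0.068). DSC2, a desmocollin, was listed at 5 and 13 in Ctrl, a spread wider than any difference between groups.

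Among the 19 epithelial genes that met the limit, the membrane inhibitors of serine proteases gave the lowest log2 fold changes in both comparisons. SPINT1 (HAI-1, chr15:40844018-40858207), which holds the protease matriptase in check, was listed at 17 and 12 in Ctrl, 3 and 1 in DZNep, and 7 and 5 in shEZH2. The 3 groups did not overlap, and SPINT1 was 5.56-fold lower with DZNep (log2 -2.48, SE 0.39, limma adjusted p = 0.002). SPINT1 met the limit only through its Ctrl values, so a difference was built into its selection, and values of 3 and 1 carry a large rounding error. SPINT2 (HAI-2, chr19:38244035-38292615), its relative, was listed at 232 and 203, 83 and 75, and 141 and 130. SPINT2 was 2.87-fold lower with DZNep (log2 -1.52, SE 0.20, limma adjusted p = 0.00091), again with shEZH2 between the other groups. In shEZH2 the log2 differences were -1.19 for SPINT1 (SE 0.39, limma adjusted p = 0.094) and -0.73 for SPINT2 (SE 0.20, limma adjusted p = 0.06). ST14, which encodes matriptase itself, was listed at 1 or 2 in every sample.

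Of the 5 mesenchymal genes that met the limit, ZEB2 rose with DZNep and none fell, against 22.4% and 20.4% of all genes. The median log2 fold change of the 5 was -0.15 against 0.02 over all genes. ZEB2 (chr2:144364364-144521057), a repressor of epithelial genes, was listed at 13 and 21 in Ctrl, 26 and 41 in DZNep, and 25 and 27 in shEZH2. The Ctrl values lay under all others, and ZEB2 was 1.83-fold higher with DZNep (log2 0.87, SE 0.24, limma adjusted p = 0.021). The call was lost without Ctrl replicate 1 (limma adjusted p = 0.073) and without DZNep replicate 2 (0.072), and on the values as deposited (0.053). ZEB1, its relative at chr10:31318495-31529814, was listed at 8 and 14, 8 and 12, and 7 and 9, with overlap throughout (log2 -0.17, SE 0.27, limma adjusted p = 0.64 with DZNep). VIM (vimentin, chr10:17228241-17237593), the filament protein of mesenchymal cells, was listed at 2442 and 2693, 1972 and 2075, and 2174 and 2179. Its Ctrl values were the highest of the 6, and its log2 differences of -0.41 with DZNep (SE 0.16, limma adjusted p = 0.074) and -0.29 in shEZH2 (SE 0.16, limma adjusted p = 0.29) did not pass. CDH2 (N-cadherin, chr18:27932879-28177946), the cadherin gained in EMT, was listed at 56 and 70, 64 and 79, and 49 and 50. Ctrl and DZNep overlapped as listed, but both DZNep values lay just above Ctrl after rescaling (log2 0.11, SE 0.16, limma adjusted p = 0.61). The shEZH2 values lay under both groups (log2 -0.38, SE 0.16, limma adjusted p = 0.17). TWIST1 (chr7:19020991-19117636), a basic helix-loop-helix factor, was listed at 9 and 15, 10 and 12, and 11 and 9, with overlap throughout (log2 -0.15, SE 0.23, limma adjusted p = 0.64 with DZNep and log2 -0.25, SE 0.23, limma adjusted p = 0.52 in shEZH2). ZEB1 and ZEB2 differed from Ctrl by -0.42 (SE 0.27, limma adjusted p = 0.34) and 0.58 (SE 0.24, limma adjusted p = 0.16) in shEZH2.

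Within a sample, keratins 8 and 18 were also set against vimentin. The log2 ratio of KRT8 to VIM was -1.26 and -1.72 in Ctrl, 0.84 and 0.55 in DZNep, and -0.55 and -0.54 in shEZH2. Against Ctrl the mean ratio was thus higher by 2.19 with DZNep and by 0.94 in shEZH2. For KRT18 to VIM the values were -0.81 and -1.32, 1.16 and 0.87, and -0.45 and -0.45. Whether the values were corrected for gene length is unknown, so only changes between groups can be read, not the sign. These ratios restate the keratin and vimentin values above and were given no test. A higher value in such bulk RNA cannot tell more cells with a transcript from more RNA per cell.

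**Figure D3:**
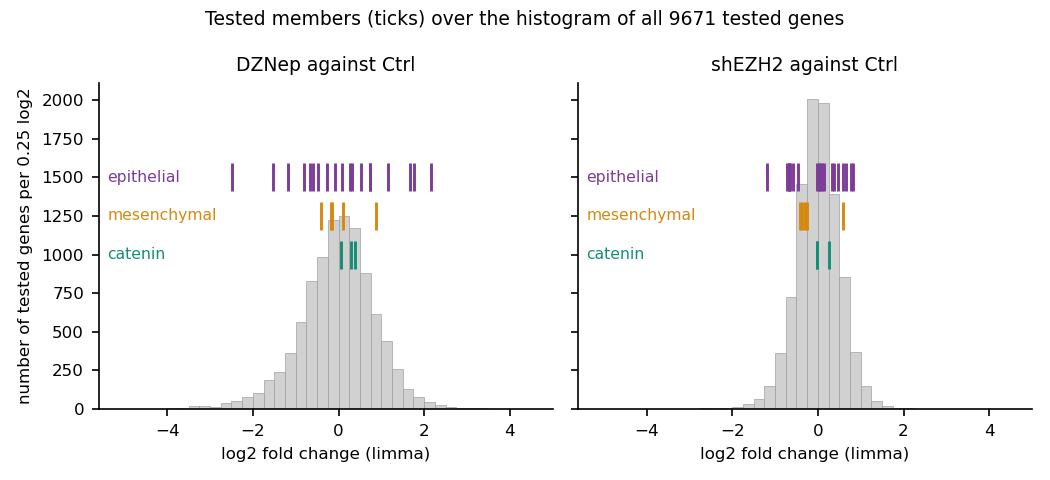
Histograms of the log2 fold changes of all 9671 tested genes for DZNep (left) and shEZH2 (right) against Ctrl, in steps of 0.25, with the 19 epithelial genes, the 5 mesenchymal genes and the 3 catenins as ticks at heights that carry no value. The epithelial ticks spread from -2.48 to 2.16 with DZNep, and the mesenchymal ticks lie between -0.41 and 0.87.

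With silencing of EZH2 none of the 27 genes passed the test of limma at an adjusted p under 0.05, where 3.91% of all genes rose and 4.53% fell, or 8.40% and 4.32% on the values as deposited. The smallest adjusted p was 0.059, for CDH3. At an unadjusted p under 0.05 there were 12 of the 27, 5 higher (CDH3, F11R, KRT8, JUP and ZEB2) and 7 lower (KRT7, DSG2, PKP4, PERP, SPINT1, SPINT2 and CDH2), against 28.2% of all genes. At the cut-offs of the methods only SPINT1, lower, was counted, where 2.27% of all genes were higher and 3.03% lower. SPINT1 met the limit only through its Ctrl values, so a difference from Ctrl was built into its selection. The median log2 fold changes were 0.06 for epithelial genes, -0.29 for mesenchymal genes and -0.02 for catenins, against -0.01 over all genes. The count of 0 depended on the scaling, the pseudocount, the trend, the samples in the fit, single libraries and the replicate number. With the replicate number added to the fit, 11 of the 27 genes passed. On the values as deposited 4 epithelial genes rose and 2 fell, and with only the shEZH2 and Ctrl samples in the fit 2 rose and 4 fell. DZNep replicate 1 entered this comparison only through the shared spread and the scaling. Without it, the log2 differences were 0.84 for CDH3 (0.83 with all samples), -0.68 for KRT7, -0.64 for PERP, -1.19 for SPINT1 and -0.73 for SPINT2. Without DZNep replicate 2, 2 rose and 4 fell, and without Ctrl replicate 1, 2 rose (F11R and KRT8) and 1 fell (DSG2).

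The shEZH2 and DZNep samples were also compared directly, since both were set against the same 2 Ctrl samples. Of the 27 genes, SPINT2 was higher in shEZH2 than in DZNep (log2 0.79, SE 0.20, limma adjusted p = 0.047), where 4.88% of all genes were. CDH3, KRT8 and KRT18 were lower in shEZH2, where 4.42% of all genes were, with log2 differences of -1.33 (SE 0.23, limma adjusted p = 0.015), -1.12 (SE 0.23, limma adjusted p = 0.026) and -1.34 (SE 0.24, limma adjusted p = 0.017). At the cut-offs of the methods SPINT1 was higher, where 3.42% of all genes were, and the same 3 genes were lower, where 2.10% were. CDH3 met the limit only through its DZNep values, so a difference from DZNep was built into its selection. For F11R the direct difference was 0.05, with a 95% interval from -0.47 to 0.57, and for TJP1 it was 0.01. KRT7 (log2 -0.60, limma adjusted p = 0.12) and CDH2 (log2 -0.49, limma adjusted p = 0.096) did not pass. All 4 calls were lost when the 2 close shEZH2 samples were averaged and counted as 1 (adjusted p of 0.14, 0.21, 0.13 and 0.33 for CDH3, KRT8, KRT18 and SPINT2) and when either shEZH2 sample was left out. The KRT8 call was also lost without DZNep replicate 1 (0.068) and that of SPINT2 without DZNep replicate 2 (0.098), with other filters on low values (0.066 and 0.051) and without the trend (0.057).

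The 17 genes under the limit were 14 epithelial and 3 mesenchymal genes, whose values are too small and too coarsely rounded for a fold change to be precise. Of the tight junction genes among them, TJP3, CLDN4 and CLDN3 had their highest values in Ctrl. TJP3 (ZO-3) was listed at 14 and 9 in Ctrl, 3 and 1 in DZNep, and 3 and 3 in shEZH2. CLDN4 (claudin-4), a claudin raised in many ovarian cancers, was listed at 6 and 5, 2 and 1, and 3 and 2. CLDN3, which lies 29271 bases from CLDN4 on chromosome 7, was listed at 2 and 2, 1 and 1, and 1 and 1, whereas CLDN7 stayed between 1 and 3 and MARVELD1, a membrane protein of the occludin fold, between 4 and 9.

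Among the keratins under the limit, KRT80 was listed at 2 and 2, 7 and 5, and 3 and 3, and KRT81, a hair keratin with near-identical relatives, at 1 and 0, 7 and 5, and 2 and 1. Both had their highest values in DZNep. Of the plakophilins and plakins, PKP2 was listed at 6 and 7, 8 and 14, and 8 and 7, and PPL (periplakin) at 3 and 3, 1 and 1, and 2 and 1. The splicing factors ESRP1 and ESRP2, which set epithelial splice forms, were listed at 3 and 2, 1 and 2, and 3 and 3, and at 7 and 4, 2 and 3, and 3 and 3. The mesenchymal factors differed in direction. SNAI2 (Slug) was listed at 3 and 3 in Ctrl, 9 and 10 in DZNep, and 4 and 4 in shEZH2, and rounding allows a ratio of DZNep to Ctrl from 2.57 to 4. SNAI1 (Snail) was listed at 2 and 2, 4 and 4, and 4 and 4, and TWIST2 at 7 and 7, 5 and 3, and 5 and 4. CDH1 and the EMT factors SNAI1, SNAI2 and ZEB2 had lower values in Ctrl than in DZNep, whereas TWIST2 had higher values in Ctrl. ZEB1 and TWIST1 overlapped between Ctrl and DZNep.

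**Figure D4:**
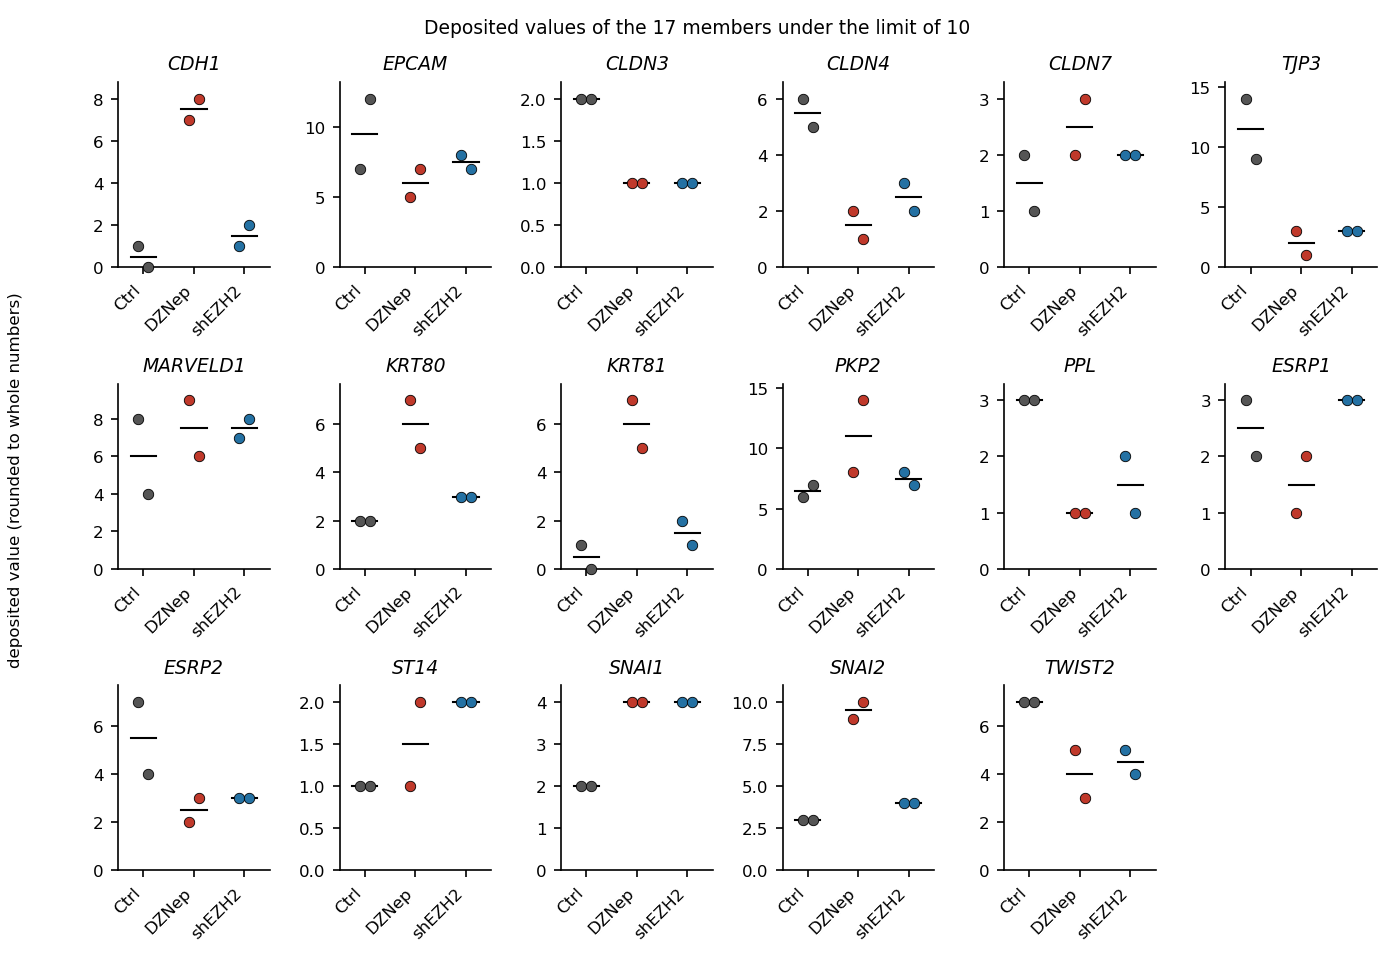
Deposited values of the 17 genes under the limit of 10 in 2 samples, 1 panel per gene with its own axis from 0, where points are samples and lines are means of 2. CDH1 and SNAI2 are highest in DZNep at 7 and 8 and at 9 and 10, and TJP3 is highest in Ctrl at 14 and 9.

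A further list of 88 junction, keratin, epithelial regulator and mesenchymal genes gave context. Of these, 62 were in the matrix and 35 met the limit, and with DZNep 16 rose and 6 fell, against 22.4% and 20.4% of all genes. The list was written with earlier results of these data known, so these counts are a description only. FN1 (fibronectin), a matrix protein gained in EMT, had the highest value at 4.07 (SE 0.24, limma adjusted p = 5.1e-05), from 36 and 25 in Ctrl to 546 and 544 in DZNep. TAGLN (transgelin), an actin-binding protein, followed at 2.14, and LAMB3, a chain of laminin-332, at 2.11. ITGB4, the integrin of hemidesmosomes, had the lowest value at -3.47, from 27 and 23 in Ctrl to 1 and 2 in DZNep, followed by CDH4 (R-cadherin) at -3.33, from 36 and 29 to 2 and 3, and the membrane protease MMP14 at -2.11. ITGB4 and CDH4 met the limit only through their Ctrl values, so a difference from Ctrl was built into their selection. The same holds for some genes that rose. KLF4 met the limit only through its DZNep values, and CLDN23, KRT10, KRT17 and TFAP2A only through treated samples. Among the 8 mesenchymal genes of this list 5 rose and 1 fell, beside 1 and 0 of the 5 mesenchymal genes above.

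In shEZH2, 5 genes of the further list rose (LSR, LAMB3, KRT17, FN1 and LOXL2) and 4 fell (CDH4, ITGA6, ITGB4 and MMP14), against 3.91% and 4.53% of all genes. FN1 was again highest at 1.30 (SE 0.24, limma adjusted p = 0.021), followed by KRT17, a keratin of basal and stressed epithelium, at 1.18, and LSR, a protein of tricellular tight junctions, at 0.99. CDH4 (9 and 7) was lowest at -1.94, followed by ITGB4 (8 and 6) at -1.75 and its partner ITGA6 at -1.11, and for CDH4 and ITGB4 the limit was again met only through Ctrl. KRT17 was listed at 8 and 6 in Ctrl and 17 and 18 in shEZH2, and met the limit only through treated samples.

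**Figure D5:**
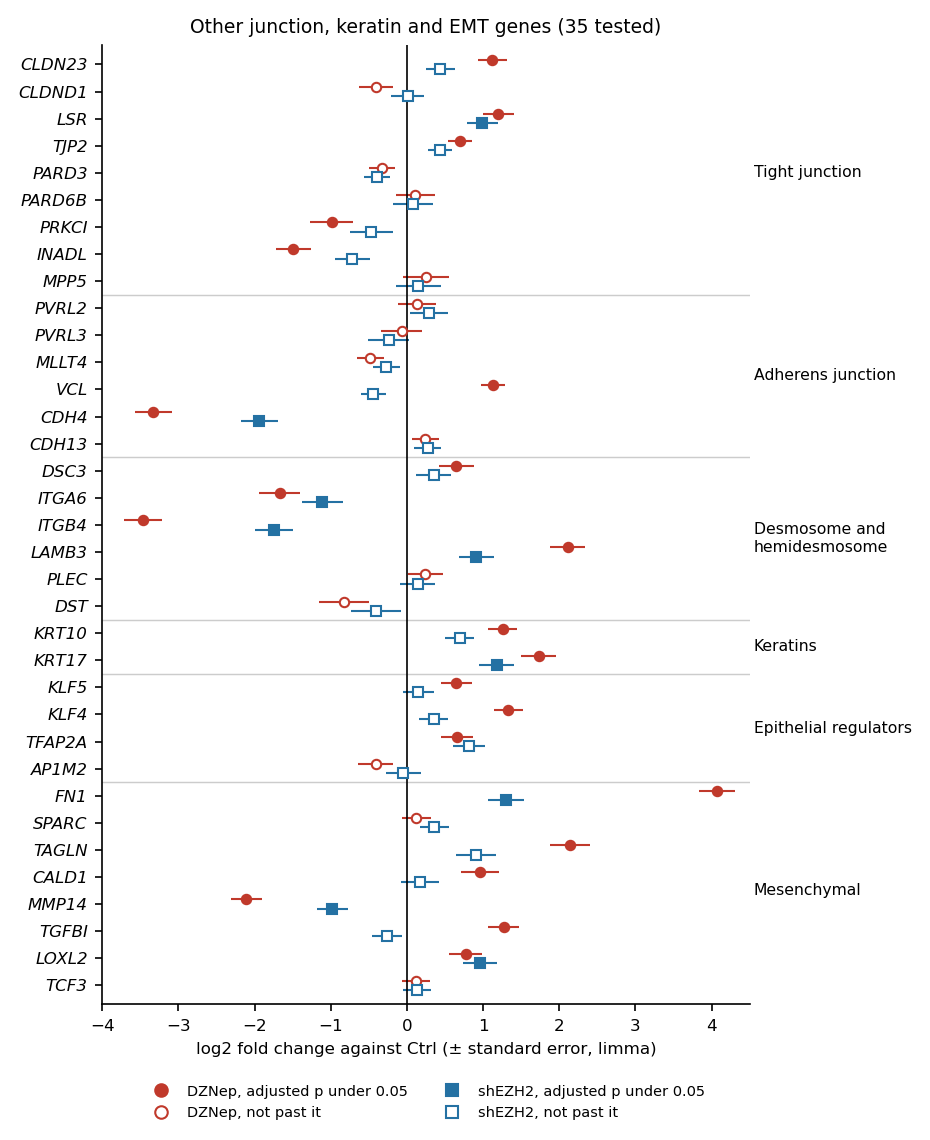
Log2 fold changes of the 35 further junction, keratin and EMT genes that met the limit, grouped by list, for DZNep (circles) and shEZH2 (squares) against Ctrl, with bars of 1 standard error from limma. Filled marks passed an adjusted p of 0.05. FN1 lies farthest to the right at 4.07 and ITGB4 farthest to the left at -3.47, both with DZNep.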

How the data were processed

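RNA-Seq of 6 OVCAR8 samples was analysed, 2 for each of the groups Ctrl, DZNep and shEZH2, and the labels gave the groups and replicate numbers. The authors depleted ribosomal RNA, made stranded libraries, trimmed reads (fastp) and mapped (STAR, GRCh38) and quantified them (RSEM). Deposited values are scores, scaled by the authors to nearly the same total in each sample and rounded, although the table is called a count matrix, and TPM would have this form. Read depth is therefore unknown, no counting interval was computed, and precision is limited by rounding and 2 samples per group. The study's methods name a recent GENCODE annotation, whereas the matrix carries some older symbols (PVRL2, MLLT4), and 5 genes of the further list were matched through their older symbol. The strand setting used for quantification is not given in the sources used here.

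Because the values are not counts, the planned edgeR test of the methods was replaced by limma 3.58.1 in R 4.3.3 (lmFit, eBayes with trend, two-sided) on log2(value + 1) after TMM scaling without weights (trims of 30% and 5%, factors from 0.920 to 1.12). Genes with a value of 10 or more in at least 2 samples were tested. All 6 samples entered 1 fit of group means, and p-values were adjusted by Benjamini-Hochberg over the 9671 genes. The fit was tested on simulated data. The genes, the further list and the marker lists were chosen with earlier results of these data known. The genes named in full were every mesenchymal gene and catenin that met the limit, CDH1, CDH3, EPCAM, CLDN3, CLDN4, TJP1, KRT7, KRT8, KRT18, KRT19 and ESRP1, and each other epithelial gene that passed with an absolute log2 fold change above 1. Of the further list they were the 3 highest and 3 lowest that passed in each comparison. Further genes were named after their values were seen, and 1 gene of the further list is not reported here. Gene positions came from GENCODE v44, promoter windows from RefSeq, and figures from matplotlib 3.10.9 in Python 3.11.15. Alternatives were other scalings, pseudocounts, filters, thresholds and sets of samples, a replicate block, limma without the trend, and the shEZH2 samples averaged.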

Additional observations from a re-analysis of the deposited data

How the results depend on the processing

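CLDN1, KRT8, KRT18 and SPINT2 kept their direction and call with DZNep under each alternative, CDH3 and SPINT1 could not be fitted at a mean of 10 or more, and median-ratio scaling and a pseudocount of 0.5 changed no count. On values as deposited, the counts with DZNep were 7 epithelial genes higher and 2 lower (6 and 5 as reported, with EVPL gained), 0 mesenchymal higher and 1 lower, and 1 catenin higher, and in shEZH2 4 epithelial genes were higher and 2 lower. That scaling also moved the share of higher genes among all called from 52.3% to 62.2% with DZNep and from 46.3% to 66.0% in shEZH2. In fits of only the groups compared, 2 epithelial genes were higher and 4 lower in shEZH2, and 2 genes were higher in shEZH2 than in DZNep. A pseudocount of 5 gave 1 epithelial gene lower in shEZH2, and a fit without the trend gave 1 higher and, in the direct comparison, 0 higher. The direct comparison also had 0 higher without a filter and at a mean of 10 or more, and 0 higher and 0 lower with the shEZH2 samples averaged. The cut-offs of the methods gave 3 epithelial genes lower and 0 mesenchymal higher with DZNep, and 1 epithelial gene lower in shEZH2. With each sample left out in turn, the epithelial counts ranged from 4 to 7 higher and 2 to 6 lower with DZNep and from 0 to 2 higher and 0 to 4 lower in shEZH2, mesenchymal genes higher with DZNep from 0 to 1, and the direct comparison from 0 to 2 higher and 0 to 3 lower. A group left with 1 sample was assumed to vary like the others. The cause of these shifts was not tested.

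The replicate numbers gave a correlation of deviations from the group means of 0.79 between Ctrl and DZNep, -0.02 between Ctrl and shEZH2 and -0.04 between DZNep and shEZH2. Same-numbered Ctrl and DZNep samples thus deviated together and shEZH2 samples did not, and the labels do not say what a number marks. With the replicate block, 7 epithelial genes rose and 7 fell with DZNep (EVPL, CLDN12 and OCLN gained, with limma adjusted p of 0.028, 0.04 and 0.0074), 4 rose and 6 fell in shEZH2, 1 mesenchymal gene rose in shEZH2, and 3 genes were higher and 6 lower in shEZH2 than in DZNep.

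Small differences that did not pass changed sign. On values as deposited and in fits of only the groups compared, the shEZH2 difference was 0.02 and 0.00 for CLDN12, 0.03 and 0.01 for CTNNA1, and 0.03 and 0.01 for CTNNB1. With samples left out in turn, the shEZH2 differences ranged from -0.31 to 0.26 for CLDN12, -0.11 to 0.16 for DSP, -0.39 to 0.70 for DSC2, -0.09 to 0.21 for EVPL, -0.52 to 0.01 for TWIST1, -0.08 to 0.05 for CTNNA1 and -0.06 to 0.04 for CTNNB1. With DZNep they ranged from -0.00 to 0.16 for TJP1, -0.32 to 0.14 for KRT7, -0.28 to 0.81 for DSC2, -0.47 to 0.13 for ZEB1, -0.41 to 0.12 for TWIST1 and -0.18 to 0.30 for CTNND1.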

Other observations

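VCL and TGFBI of the further list were described after their values were seen. VCL (vinculin), which links catenins to actin, was listed at 154 and 151 in Ctrl, 339 and 365 in DZNep, and 114 and 118 in shEZH2. VCL rose by 1.13 with DZNep (SE 0.16, limma adjusted p = 0.0013), its difference in shEZH2 was -0.44 (limma adjusted p = 0.12), and the direct difference was -1.57 (SE 0.16, limma adjusted p = 0.0032). TGFBI, a matrix protein induced by TGF-beta, was listed at 297 and 239, 677 and 676, and 238 and 221. TGFBI rose by 1.27 with DZNep (SE 0.20, limma adjusted p = 0.0019), its difference in shEZH2 was -0.26 (limma adjusted p = 0.42), and the direct difference was -1.53 (SE 0.20, limma adjusted p = 0.0066). Both genes had all shEZH2 values under, and all DZNep values above, those of Ctrl, although their shEZH2 differences from Ctrl did not pass.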
